A study of Rattus norvegicus with 6 samples.

Results

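The pressor and vasoactive genes described here were 10 rows of the count table, selected by gene name: Agtr1a, Ace, Atp6ap2 and Agtrap of the angiotensin system, Bdkrb1 and Bdkrb2 of the kinin system, Edn1, Ednra and Ednrb of the endothelin system, and Adra2c of the adrenergic system. All 10 were present among the 25689 genes of the table, and 9 of them were among the 14919 genes with enough reads to be tested, Bdkrb1 being the exception. The RNA came from neurons isolated from dorsal root ganglia (DRGs) at L1-L2, taken from the spontaneously hypertensive rat (SHR), an inbred model of high blood pressure. In 3 samples the rats had undergone bilateral surgical removal of perirenal fat (perirenal adipose tissue ablation, PRATA) 4 weeks earlier, and in 3 samples a sham operation. Both groups were labelled wild type, of the same strain and 6 to 8 weeks of age, while the study's methods give an older age at purchase, and no normotensive rats were sequenced. The ganglia were digested with enzymes, and neurons were separated from glia by their slower adhesion during a short culture, so every level below is that of cells after this procedure. The labels do not say how many rats gave each sample, and the p-values measure the spread between these samples, which may in part be technical.

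The 4 systems act on vascular tone and on sensory endings. Angiotensin-converting enzyme (Ace) produces angiotensin II, which signals through the AT1 receptor (Agtr1a), and the same enzyme degrades bradykinin, the ligand of the B2 receptor (Bdkrb2). The B1 receptor (Bdkrb1) responds to kinin fragments without the terminal arginine and is known as a receptor that is scarce in healthy tissue and induced by injury. Endothelin-1 (Edn1) is a constrictor peptide made mostly by endothelium, with a receptor on smooth muscle and some sensory neurons (Ednra) and another (Ednrb) that is abundant in the satellite glia of sensory ganglia. The alpha-2C adrenoceptor (Adra2c) couples to inhibitory G proteins and dampens transmitter release. Agtrap binds the AT1 receptor and promotes its internalization, and Atp6ap2 is both the (pro)renin receptor and an accessory subunit of the vacuolar proton pump.

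Reference promoters are shown for 4 of the genes, Adra2c because its log2 fold change was the largest of the 9 genes tested, and Ednrb, Edn1 and Ace because their levels ran in parallel with cell type markers. The sequences are those of RefSeq on the rat assembly GRCr8, which matched 9 of the 10 genes by symbol, and each runs 5′ to 3′ from 250 bases before the annotated gene start to 50 bases after it. Capitals mark matches on either strand to the TATA box (TATAAA), the CCAAT box (CCAAT), the core of the Sp1 box (GGGCGG), the AP-1 site (TGACTCA) or the GATA-type site (AGATAA).
Adra2c promoter, chr14:79697427-79697726, minus strand: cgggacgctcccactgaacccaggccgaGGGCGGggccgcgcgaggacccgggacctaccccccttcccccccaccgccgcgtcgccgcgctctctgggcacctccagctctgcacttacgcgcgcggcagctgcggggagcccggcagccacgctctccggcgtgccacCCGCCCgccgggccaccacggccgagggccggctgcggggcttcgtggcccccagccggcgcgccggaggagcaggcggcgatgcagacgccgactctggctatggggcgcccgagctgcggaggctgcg
Ednrb promoter, chr15:87086716-87087015, minus strand: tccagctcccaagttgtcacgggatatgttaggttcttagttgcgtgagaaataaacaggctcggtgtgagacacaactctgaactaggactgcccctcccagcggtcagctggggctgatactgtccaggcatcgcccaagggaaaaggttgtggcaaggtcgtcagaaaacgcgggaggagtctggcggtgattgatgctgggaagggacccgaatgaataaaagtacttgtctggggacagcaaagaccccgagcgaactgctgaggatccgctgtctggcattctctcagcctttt
Edn1 promoter, chr17:22666638-22666937, minus strand: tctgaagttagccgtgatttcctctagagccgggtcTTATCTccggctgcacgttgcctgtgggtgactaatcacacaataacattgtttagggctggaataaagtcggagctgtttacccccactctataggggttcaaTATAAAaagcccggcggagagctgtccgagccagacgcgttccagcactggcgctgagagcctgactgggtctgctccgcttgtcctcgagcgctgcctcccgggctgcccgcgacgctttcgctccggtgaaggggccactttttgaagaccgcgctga
Ace promoter, chr10:91409879-91410178, plus strand: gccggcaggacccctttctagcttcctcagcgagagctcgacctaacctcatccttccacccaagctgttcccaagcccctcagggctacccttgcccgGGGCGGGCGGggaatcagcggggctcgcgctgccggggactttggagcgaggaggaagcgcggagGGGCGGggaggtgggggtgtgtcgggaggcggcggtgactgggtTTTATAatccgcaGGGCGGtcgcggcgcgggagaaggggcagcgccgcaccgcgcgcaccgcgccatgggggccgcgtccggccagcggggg
The Adra2c window was 79.0% G and C with 43 CpG dinucleotides, against medians of 51.7% and 7 over 33469 promoters. It held GGGCGG 2 times, once on each strand, a motif present in 33.1% of those promoters. The Ace window held GGGCGG 4 times, 2 of them overlapping, and TATAAA once on the opposite strand. The Edn1 window held TATAAA, found in 14.2% of promoters, and AGATAA on the opposite strand, found in 11.6%. The Ednrb window held none of the 5 motifs, which says only that these letters are not in it. CCAAT occurred in 37.5% and TGACTCA in 4.63% of all promoters, and neither was found in these 4 windows.

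The shallowest library was sham replicate 2 with 5892967 counts and the deepest sham replicate 1 with 15226952, so that 3 counts, taken as the floor, correspond to between 0.207 and 0.468 TMM-normalized CPM (read counts scaled to a common library size), counting error only. PRATA replicate 3 and sham replicate 1 stood apart, with 5.40% and 5.63% of their reads on the 7SL RNA gene Rn7sl1 against at most 1.52% in the other 4 samples. Sham replicate 2 had the highest CPM of the 6 samples for 57.3% of the 10770 detected genes that were below the filter. Sensory neuron identity was clear in every sample, since 21 of 21 neuron markers passed the filter. Their summed level was 16335 to 24068 CPM in the PRATA group and 11100 to 17373 CPM in the sham group, and 21 of 21 had a log2 fold change above 0, 6 of them with an unadjusted edgeR p under 0.05. That list includes Calca and Trpv1, genes the study itself reports on. The study, which lists an antibody to TRPV1 in its methods, reports lower TRPV1 expression in L1-L2 DRGs after PRATA. Here the RNA of Trpv1 had a log2 fold change of 0.56 (standard error 0.25, edgeR adjusted p = 0.281). In these bulk samples, a change in the number of cells of one type and a change in RNA per cell cannot be told apart. The libraries also held RNA of other cells, and marker levels are given beside some of the genes below.

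No gene of the 10 passed the test at an adjusted p under 0.05, as was the case for all 14919 genes tested (0% called by the edgeR quasi-likelihood test, adjusted by Benjamini-Hochberg). DESeq2 called 728 genes and voom with quality weights 1173 genes at that threshold, with none of the 10 genes among them, although DESeq2 gave no adjusted p for Ace, Agtr1a and Edn1. At an unadjusted p under 0.05, 2 of the 9 tested genes were higher in the PRATA group and 0 lower, against 8.19% and 10.1% of all genes tested. Those 2 genes were Adra2c and Bdkrb2, while DESeq2 gave an unadjusted p under 0.05 to Adra2c and Ednrb. 0 of the 9 passed an unadjusted p under 0.05 together with an absolute log2 fold change over 1, against 4.40% of all genes, 1.17% higher and 3.23% lower. The groups did not overlap for 3 of the 9 genes, 2 of them higher (Adra2c and Bdkrb2) and 1 lower (Agtr1a) in the PRATA group, against 11.6% and 11.2% of all genes tested. The log2 fold change was above 0 for 6 of the 9 genes, against 52.0% of all genes tested, with a median of 0.29, against 0.02 for all genes tested. With 3 samples against 3, no exact permutation p can fall below 0.10.

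**Figure D1:**
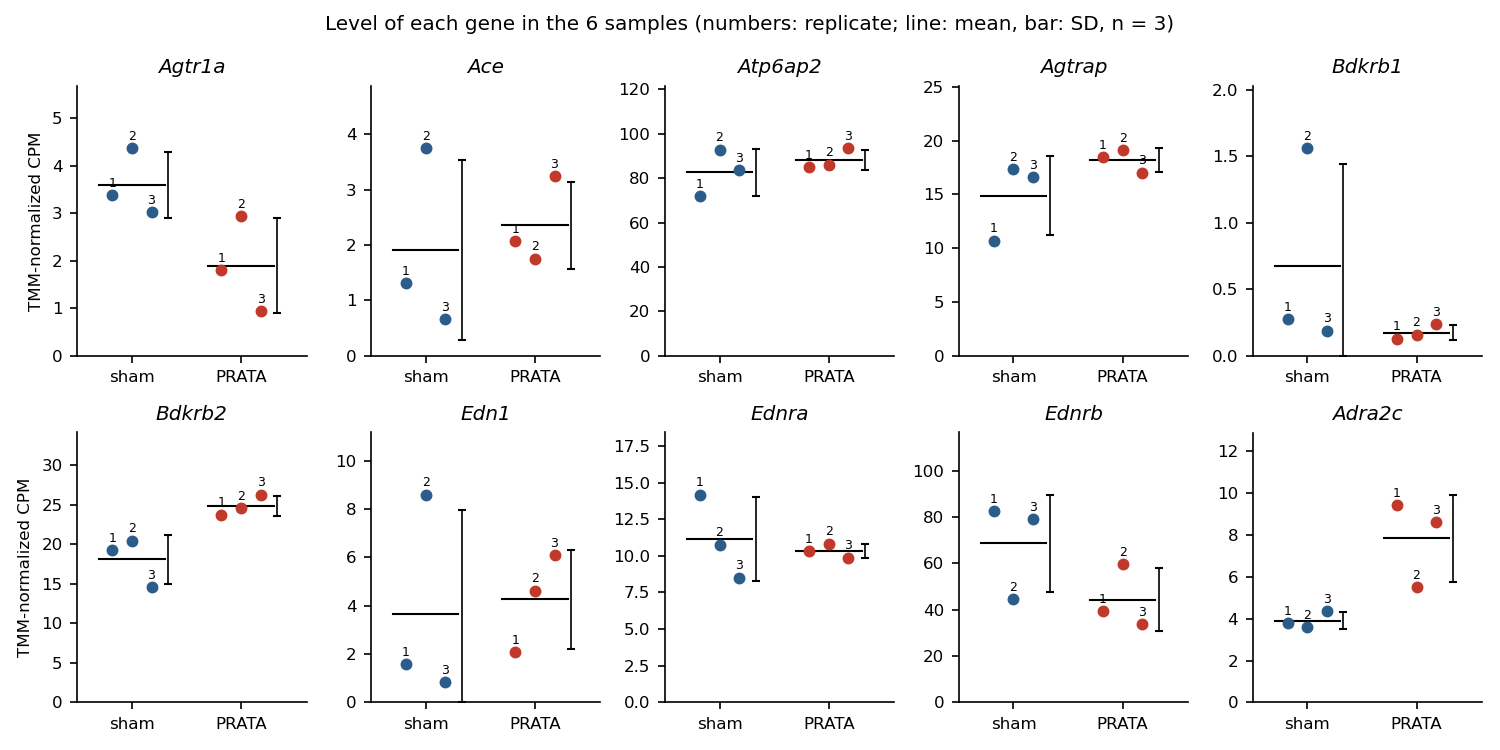
Level of each of the 10 genes in TMM-normalized CPM (vertical axis, starting at 0, scaled per gene) in the 3 sham and 3 PRATA samples, with points labelled by replicate number, the mean as a line and the SD as a bar that is cut at 0. The groups are apart for Adra2c, Bdkrb2 and Agtr1a, and sham replicate 2 is the highest sample for Edn1, Ace, Agtr1a and Bdkrb1.

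Among the 9 genes tested, the alpha-2C adrenoceptor had the largest log2 fold change. Adra2c (ENSRNOG00000009299) was at 9.42, 5.50 and 8.62 CPM in PRATA replicates 1, 2 and 3 and at 3.80, 3.59 and 4.35 CPM in sham replicates 1, 2 and 3. No sham sample reached the lowest PRATA sample, and PRATA replicate 2 was the closest to the sham range. The means were 7.85 ± 2.07 CPM (SD, n = 3) in the PRATA group and 3.91 ± 0.390 CPM (SD, n = 3) in the sham group, a log2 fold change of 0.99 (standard error 0.30, 95% interval 0.31 to 1.68, edgeR adjusted p = 0.176). The exact permutation test gave p = 0.10, two-sided. Without PRATA replicate 3 and sham replicate 1 the log2 fold change was 0.88 (edgeR adjusted p = 0.422). With the samples scaled to the neuron marker list it was 0.38 (edgeR adjusted p = 0.410), and the median of all genes tested was then -0.54. Per 1000 CPM of summed neuron markers, Adra2c was at 0.404, 0.337 and 0.358 CPM in the PRATA group and 0.342, 0.207 and 0.315 CPM in the sham group, so that the groups overlapped on this scale. The part of the neuron markers in the difference was not tested.

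Of the other adrenoceptors, Adra2a, the related receptor of the same inhibitory class, was at 5.55, 6.29 and 9.73 CPM in the PRATA group and 4.01, 4.99 and 3.68 CPM in the sham group. Its groups did not overlap either, with a log2 fold change of 0.78 (standard error 0.31, edgeR adjusted p = 0.244). Adra2b, the remaining alpha-2 receptor, had few reads and a log2 fold change of -1.08 with a standard error of 0.68. Adra1d, an alpha-1 receptor below the filter, had 4, 9 and 1 counts in the PRATA samples and 13, 16 and 24 counts in the sham samples, and its CPM did not overlap between the groups, with PRATA lower.

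Among the kinin receptors, Bdkrb2 was readily detected and Bdkrb1 was not. Bdkrb2 (ENSRNOG00000047300) was at 23.8, 24.5 and 26.3 CPM in PRATA replicates 1, 2 and 3 and at 19.3, 20.4 and 14.5 CPM in sham replicates 1, 2 and 3. The PRATA samples lay close together and above all 3 sham samples, of which replicate 3 was the lowest. The log2 fold change was 0.46 (standard error 0.19, 95% interval 0.02 to 0.90, edgeR adjusted p = 0.254), a ratio of 1.38 between the groups. The exact permutation test gave p = 0.10, two-sided. The value was 0.47 without PRATA replicate 3 and sham replicate 1. Scaling to the neuron markers gave -0.10 (edgeR adjusted p = 0.804), a scaling that shifted the median of all genes tested from 0.02 to -0.54. The neuron markers differed in the same direction as Bdkrb2, and their part in its difference was not tested.

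Bdkrb1 (ENSRNOG00000004488) had 1, 2 and 3 counts in the PRATA samples and 4, 10 and 2 counts in the sham samples, and it did not reach the filter. Its 6 counts in the PRATA group and 16 in the sham group give a ratio of 2.79 toward sham, with a 95% counting interval of 1.04 to 8.71 (exact binomial, counting error only). Without sham replicate 2, which held 10 of the 16, the ratio was 1.31. In the same sample, 15 of the 22 detected genes of the pathway lists that were below the filter had their highest CPM, beside the 57.3% found for all such genes. The ratio of Bdkrb1 to Bdkrb2 counts within a sample was 0.00543, 0.00649 and 0.00904 in the PRATA group and 0.0143, 0.0763 and 0.0130 in the sham group. The PRATA ratios were all below the sham ratios (two-sided exact permutation p = 0.10), with Bdkrb2, the denominator, higher in every PRATA sample. Bdkrb1 itself overlapped between the groups, at 0.237 CPM in PRATA replicate 3 and 0.189 CPM in sham replicate 3 (two-sided exact permutation p = 0.20). At Bdkrb1 counts of 1 to 3 in every PRATA sample and 2 in sham replicate 3, the ratios carry the counting error given above.

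The AT1 receptor was the one gene of the 10 that lay lower in every PRATA sample. Agtr1a (ENSRNOG00000018346) was at 1.81, 2.95 and 0.949 CPM in PRATA replicates 1, 2 and 3 and at 3.39, 4.37 and 3.02 CPM in sham replicates 1, 2 and 3, from 12 to 49 counts a sample. PRATA replicate 2 and sham replicate 3 were nearly level, so the separation of the groups was narrow. The means were 1.90 ± 1.0 CPM (SD, n = 3) and 3.59 ± 0.697 CPM (SD, n = 3), a log2 fold change of -0.90 (standard error 0.47, 95% interval -1.99 to 0.18, edgeR adjusted p = 0.339). The exact permutation test gave p = 0.10, two-sided. Without PRATA replicate 2 the log2 fold change was -1.39, and without PRATA replicate 3 it was -0.57. Per 1000 CPM of the summed satellite glia markers given below, Agtr1a was at 0.453, 0.457 and 0.283 CPM in the PRATA group. The sham samples were at 0.438, 0.970 and 0.346 CPM, so the groups overlapped on this scale. The near-identical paralog Agtr1b had at most 8 counts in a sample, and the sources used here do not say how reads shared by both genes were assigned.

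The other components of the angiotensin system differed by less than their spread. Atp6ap2 (ENSRNOG00000003858) was at 85.1, 86.0 and 93.5 CPM in the PRATA group and 71.8, 92.9 and 83.7 CPM in the sham group, a log2 fold change of 0.09 with a 95% interval of -0.28 to 0.47 (edgeR adjusted p = 0.798). This was the narrowest of the 9 intervals. Agtrap (ENSRNOG00000008619) was at 18.5, 19.1 and 17.0 CPM in the PRATA group and 10.7, 17.3 and 16.6 CPM in the sham group. Sham replicate 1 was the low sample for Agtrap, and the log2 fold change of 0.30 (standard error 0.23, edgeR adjusted p = 0.513) became 0.08 without it.

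Ace (ENSRNOG00000062101) was at 2.07, 1.75 and 3.24 CPM in the PRATA group and 1.31, 3.75 and 0.661 CPM in the sham group. The sham samples held both the highest and the lowest value, and the log2 fold change was 0.37 (standard error 0.64, 95% interval -1.09 to 1.84, edgeR adjusted p = 0.792). It was 1.23 without sham replicate 2 and -0.05 without sham replicate 3, and between 0.057 and 0.54 without each of the other 4 samples in turn. The ratio of Ace to Agtr1a counts within a sample was 1.14, 0.595 and 3.42 in the PRATA group and 0.388, 0.857 and 0.219 in the sham group, with overlapping groups (exact permutation test, two-sided, p = 0.20).

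Endothelin-1 varied more between samples of one group than between the groups. Edn1 (ENSRNOG00000014361) was at 2.07, 4.62 and 6.09 CPM in PRATA replicates 1, 2 and 3 and at 1.59, 8.58 and 0.850 CPM in sham replicates 1, 2 and 3. The highest sample had 10.1 times the level of the lowest, and both were sham samples. The coefficient of variation was 116% among the sham samples and 47.8% among the PRATA samples, against medians of 23.6% and 17.3% over all genes tested. The log2 fold change was 0.29 (standard error 0.80, 95% interval -1.55 to 2.14, edgeR adjusted p = 0.875). It was 1.79 without sham replicate 2, with an unadjusted edgeR p under 0.05 and an edgeR adjusted p of 0.106, and -0.41 without PRATA replicate 3 and sham replicate 1.

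The samples stood in the same order for both endothelin receptors apart from sham replicate 3. That sample was the lowest for Ednra, and for Ednrb only sham replicate 1 was higher. The highest sample had 1.67 times the level of the lowest for Ednra and 2.44 times for Ednrb. Ednra (ENSRNOG00000012721) was at 10.3, 10.8 and 9.88 CPM in the PRATA group and 14.2, 10.8 and 8.50 CPM in the sham group, a log2 fold change of -0.11 (standard error 0.24, 95% interval -0.67 to 0.45, edgeR adjusted p = 0.845). Ednrb (ENSRNOG00000010997) was at 39.4, 59.6 and 33.8 CPM in PRATA replicates 1, 2 and 3 and at 82.4, 44.6 and 79.1 CPM in sham replicates 1, 2 and 3. Sham replicates 1 and 3 were the highest, while PRATA replicate 2 lay above sham replicate 2. The log2 fold change was -0.64 (standard error 0.30, 95% interval -1.32 to 0.05, edgeR adjusted p = 0.30). It was -0.33 without PRATA replicate 3 and sham replicate 1 and -0.86 without sham replicate 2. The ratio of Ednra to Ednrb counts was 0.262, 0.182 and 0.293 in the PRATA group and 0.172, 0.241 and 0.108 in the sham group, with overlapping groups (exact permutation test, two-sided, p = 0.20).

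**Figure D2:**
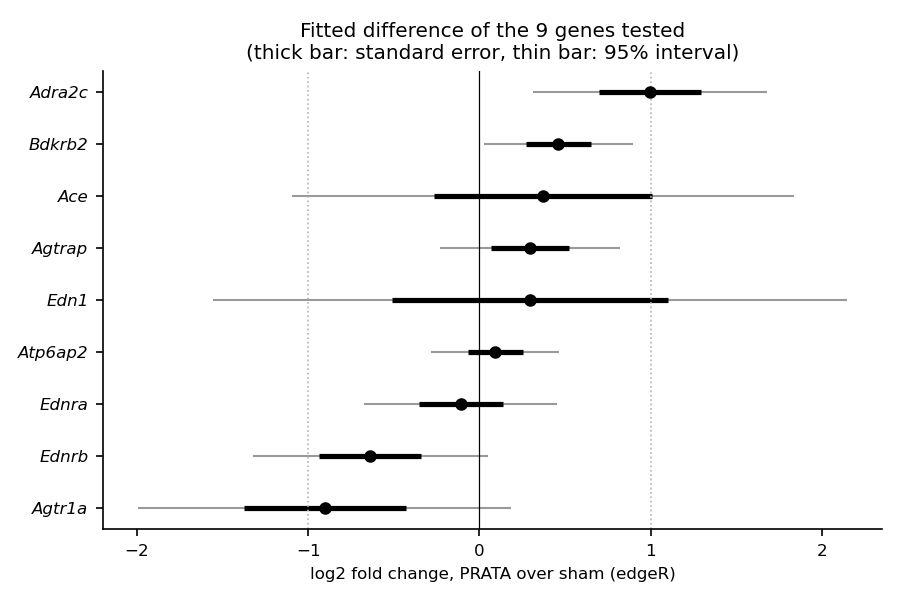
Log2 fold change of PRATA over sham (horizontal axis) for the 9 genes tested, as points with the standard error as a thick bar and the 95% interval as a thin bar, with dotted lines at a log2 fold change of -1 and 1. The intervals of Adra2c and Bdkrb2 lie above 0, that of Atp6ap2 is the narrowest, and that of Edn1 is the widest, from -1.55 to 2.14.

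Ednrb followed the satellite glia markers of the same samples. The summed level of 10 such markers was 3991, 6453 and 3358 CPM in PRATA replicates 1, 2 and 3 and 7722, 4507 and 8743 CPM in sham replicates 1, 2 and 3. The samples stood in the same order for Ednrb, apart from sham replicates 1 and 3, which changed places. Of the 10 markers, 9 were lower in the PRATA group, 1 of them (Sox10) with an unadjusted edgeR p under 0.05, and 1 (Erbb3) was higher. Per 1000 CPM of these markers, Ednrb was at 9.86, 9.23 and 10.1 CPM in the PRATA group and 10.7, 9.90 and 9.04 CPM in the sham group. On this scale the highest sample had 1.18 times the level of the lowest, against 2.44 times for Ednrb itself. Apoe alone made up 81.0% to 85.5% of the marker sum, and against the other 9 markers the level of Ednrb still varied by 1.28 times only. With the samples scaled to the satellite glia markers, an alternative chosen after these values were seen, the log2 fold change of Ednrb was -0.14 (edgeR adjusted p = 0.905).

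Edn1 and Ace followed endothelial markers. The summed level of 10 endothelial markers was 77.8, 136 and 156 CPM in PRATA replicates 1, 2 and 3 and 74.9, 184 and 31.7 CPM in sham replicates 1, 2 and 3. All 6 samples stood in the same order for Edn1 as for this sum, and for Ace only PRATA replicates 1 and 2 changed places. Per 1000 CPM of the markers, Edn1 ranged from 21.2 to 46.5 CPM and Ace from 12.9 to 26.5 CPM. The highest sample then had 2.19 times the level of the lowest for Edn1 and 2.06 times for Ace, against 10.1 and 5.67 times without this scaling. The endothelial sum itself overlapped between the groups, and 9 of its 10 markers had a log2 fold change above 0, 1 of them (Vwf) with an unadjusted edgeR p under 0.05. With the samples scaled to the endothelial markers, again an alternative chosen after the values were seen, the log2 fold change was 0.04 for Edn1 and -0.01 for Ace. These orders are a description of 6 samples, and the part of the marker cells in each gene's level was not tested.

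Ednra was set beside 10 mural cell markers, whose sum was 218, 313 and 222 CPM in the PRATA group and 358, 164 and 205 CPM in the sham group. Its highest sample, sham replicate 1, was also the highest for these markers, but relative to them Ednra varied by 1.90 times, more than the 1.67 times of Ednra itself. The summed markers of fibroblasts (341 to 2009 CPM over the 6 samples), macrophages (41.6 to 181 CPM) and myelinating Schwann cells (592 to 1420 CPM) overlapped between the groups. All 9 Schwann cell markers had a log2 fold change above 0, 3 of them with an unadjusted edgeR p under 0.05. Of 6 sympathetic neuron markers, Th, Dbh, Phox2a and Gata3 did not reach the filter, and Phox2a was at 0 in 4 samples. The other 2 passed it, Slc18a2 (the vesicular monoamine transporter) at 6.08 to 8.22 CPM and Slc6a2 at 0.516 to 3.75 CPM.

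**Figure D3:**
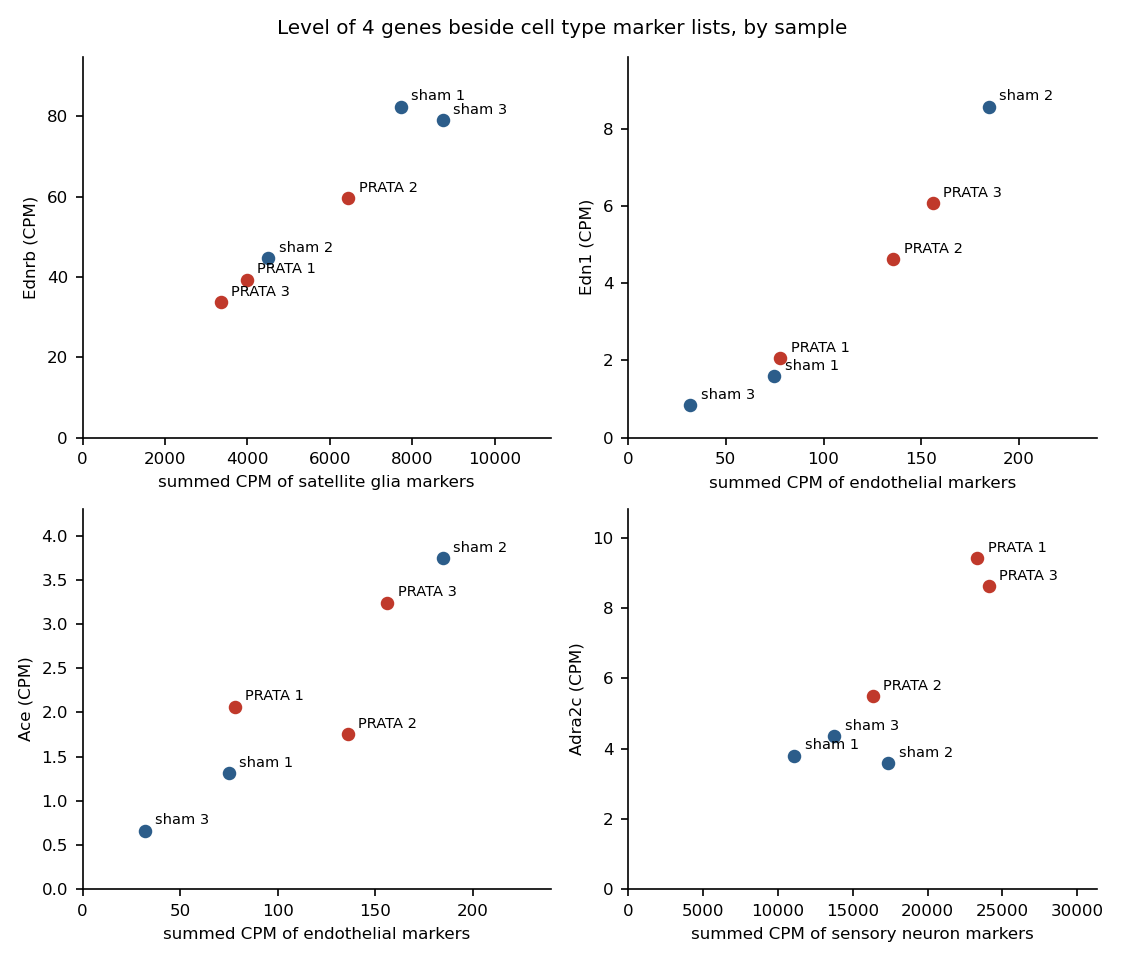
Level of Ednrb, Edn1, Ace and Adra2c in CPM (vertical axes) against the summed CPM of satellite glia, endothelial or sensory neuron markers (horizontal axes) in the 6 samples, PRATA in red and sham in blue. Ednrb and Edn1 are higher where their marker sums are higher, in samples of both groups, while for Adra2c sham replicate 2 lies lower than PRATA replicate 2 at a like marker sum.

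The wider pathways were described with lists of genes for each system and for the G proteins that the receptors use. In the renin-angiotensin list, 16 of 21 genes were tested, with 9 higher and 7 lower in the PRATA group and a median log2 fold change of 0.08. Of these, 0 were higher and 2 lower at an unadjusted edgeR p under 0.05, beside 8.19% and 10.1% of all genes. Both were peptidases, namely Enpep (glutamyl aminopeptidase, which converts angiotensin II to angiotensin III) and Thop1 (an oligopeptidase that cleaves angiotensin I and bradykinin). Enpep was at 6.84, 7.57 and 7.43 CPM in the PRATA group and 15, 10.8 and 11.8 CPM in the sham group, without overlap and with a log2 fold change of -0.78 (standard error 0.22, edgeR adjusted p = 0.174). Thop1 had a log2 fold change of -0.62 (standard error 0.26) and Anpep one of 1.23 (standard error 0.61), both with overlapping groups. Rnpep had one of 0.50 (standard error 0.24) without overlap. Over the list, 1 gene was higher (Rnpep) and 2 were lower (Enpep and Agtr1a) without overlap, against 11.6% and 11.2% of all genes tested. The precursor angiotensinogen (Agt) was detected at 2.69 to 7.97 CPM with overlapping groups, whereas the AT2 receptor (Agtr2) had at most 3 counts in any sample.

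In the kallikrein-kinin list, 11 of 18 genes were tested, 7 higher and 4 lower, with a median log2 fold change of 0.29. At an unadjusted edgeR p under 0.05, 2 were higher, Bdkrb2 and the protease inhibitor Serpina1, which was at 9.32 ± 1.74 CPM (SD, n = 3) in the PRATA group and 5.26 ± 1.86 CPM (SD, n = 3) in the sham group (log2 fold change 0.83, standard error 0.32). None was lower at that p, and the shares of all genes were 8.19% higher and 10.1% lower. The kininogen gene Kng1, which encodes the bradykinin precursor, had 2 counts in sham replicate 2 and 0 in the other 5 samples. The carboxypeptidase genes Cpd and Cpe had log2 fold changes of 0.29 (standard error 0.16) and 0.36 (standard error 0.20). Without overlap, 3 genes of the list were higher (Bdkrb2, Serpina1 and Cpd) and 0 lower, against 11.6% and 11.2% of all genes tested. Ece1, the converting enzyme shared with the endothelin list, had a log2 fold change of -0.46 with a standard error of 0.28.

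In the endothelin list, 9 of 11 genes were tested, 4 higher and 5 lower, with a median of -0.11. None had an unadjusted edgeR p under 0.05, beside 8.19% higher and 10.1% lower of all genes. Ece2 had a log2 fold change of 0.47 (standard error 0.25), Furin, which cuts the precursor, -0.44 (standard error 0.31), and Ecel1 1.26 (standard error 0.72). The level of Ecel1, a peptidase gene known from injured neurons, rested on 36.6 CPM in PRATA replicate 2.

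In the adrenergic list, 15 of 23 genes were tested, 10 higher and 5 lower, with a median of 0.25. The 3 genes higher at an unadjusted edgeR p under 0.05 were Adra2c, Adra2a and Arrb1, the gene of beta-arrestin-1, which desensitizes these receptors, against 8.19% of all genes, and 0 were lower, against 10.1%. Arrb1 was at 74.0 ± 13.3 CPM (SD, n = 3) in the PRATA group and 52.4 ± 5.49 CPM (SD, n = 3) in the sham group, with a narrow overlap and a log2 fold change of 0.50 (standard error 0.19). Slc6a2, the noradrenaline transporter, had a log2 fold change of -1.32 (standard error 0.60, edgeR adjusted p = 0.289) from 4 to 24 counts a sample, and Maoa, a monoamine oxidase gene, one of -0.40 (standard error 0.19). For both the groups did not overlap, with every PRATA sample below every sham sample. The gene of tyrosine hydroxylase (Th) had 4, 9 and 14 counts in the PRATA samples and 5, 2 and 1 in the sham samples, below the filter. That of dopamine beta-hydroxylase (Dbh) had at most 4 counts in a sample. In CPM the groups did not overlap for either gene, with PRATA higher for Th and lower for Dbh, both from few counts.

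In the G protein coupling list, 29 of 30 genes were tested, 22 higher and 7 lower, with a median of 0.20. At an unadjusted edgeR p under 0.05, 6 were higher, against 8.19% of all genes, and 0 lower, against 10.1%. Plcb1, a phospholipase C that Gq-coupled receptors such as those for angiotensin, bradykinin and endothelin activate, was at 57.6, 44.9 and 53.8 CPM in the PRATA group and 32.7, 35.7 and 24.6 CPM in the sham group (log2 fold change 0.75, standard error 0.20, edgeR adjusted p = 0.168). The groups did not overlap for Plcb1, nor for Prkce (protein kinase C epsilon, 0.64), Gnaz (an inhibitory G protein alpha subunit, 0.64) and Gnas (the stimulatory alpha subunit, 0.55). Over the whole list, 7 genes were higher and 2 lower without overlap, against 11.6% and 11.2% of all genes tested. Scaling to the neuron markers, which shifted the median of all genes tested to -0.54, placed the median of this list at -0.34.

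**Figure D4:**
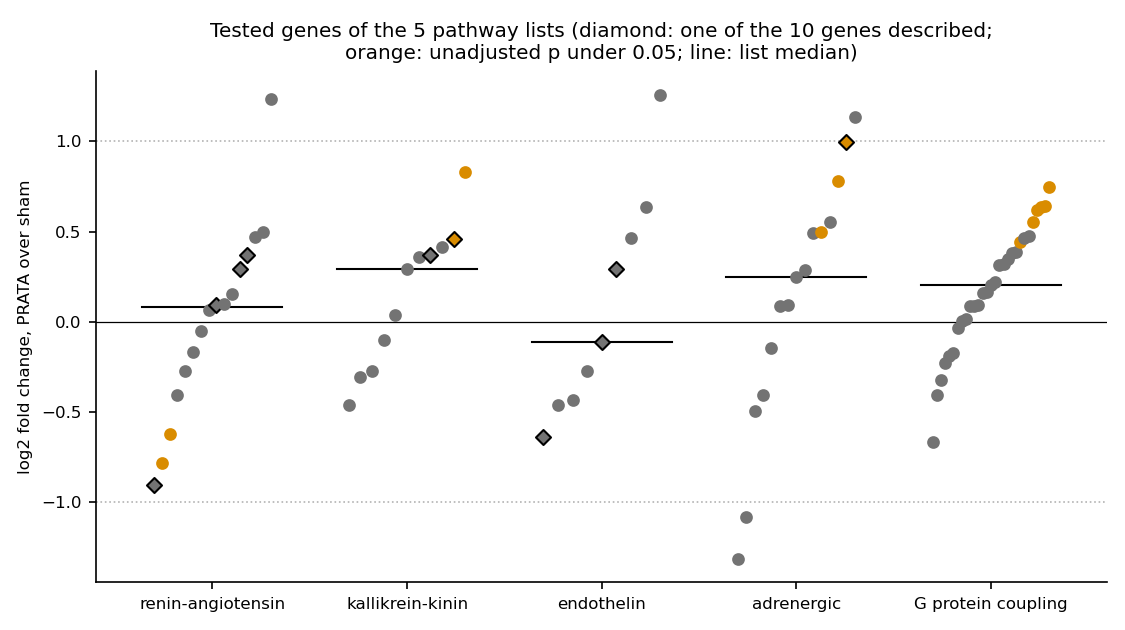
Log2 fold change of PRATA over sham (vertical axis) for every tested gene of the 5 pathway lists, with diamonds for those of the 10 genes, orange for an unadjusted p under 0.05 and a line at each list's median. The lists with the most genes in orange are the G protein coupling list (6 of 29 tested) and the adrenergic list (3 of 15), all on the side of PRATA. These counts are not scaled to list length. Of all genes tested, 8.19% were higher and 10.1% lower at that p.

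The genes whose pattern over the 6 samples was nearest to those of Adra2c, Bdkrb2 and Ednrb were found among all genes tested by the root mean square difference of log2 CPM after centring each gene. For Adra2c these were Chst2 (0.06) and Tpbgl (0.10), for Bdkrb2 Cmip (0.04) and Unc13b (0.06), and for Ednrb Gpm6a (0.06) and Epb41l2 (0.08). The median of this measure over all genes was 0.62 for Adra2c, 0.43 for Bdkrb2 and 0.61 for Ednrb. Since these genes were picked as the nearest of all, they lie below that median in any case, and a shared role was not tested.

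The size of several differences depended on single samples, and that of others on the scaling. Adra2c kept an unadjusted edgeR p under 0.05 without each of the 6 samples in turn, with log2 fold changes of 0.82 to 1.20. Bdkrb2 had log2 fold changes of 0.33 to 0.56 in the same 6 fits, with an unadjusted edgeR p under 0.05 in 1 of them, that without sham replicate 2. Ednrb ranged from -0.91 to -0.47 and Agtr1a from -1.39 to -0.57, while Edn1 ranged from -0.18 to 1.79 and Ace from -0.05 to 1.23. Without sham replicate 2, 4 of the 9 genes had an unadjusted edgeR p under 0.05 (Adra2c, Bdkrb2, Edn1 and Ednrb), when 27.6% of all genes tested did so and 721 genes, none of the 10 among them, passed an edgeR adjusted p under 0.05. Without PRATA replicate 3 and sham replicate 1, 0 of the 9 did, beside 12.9% of all genes.

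**Figure D5:**
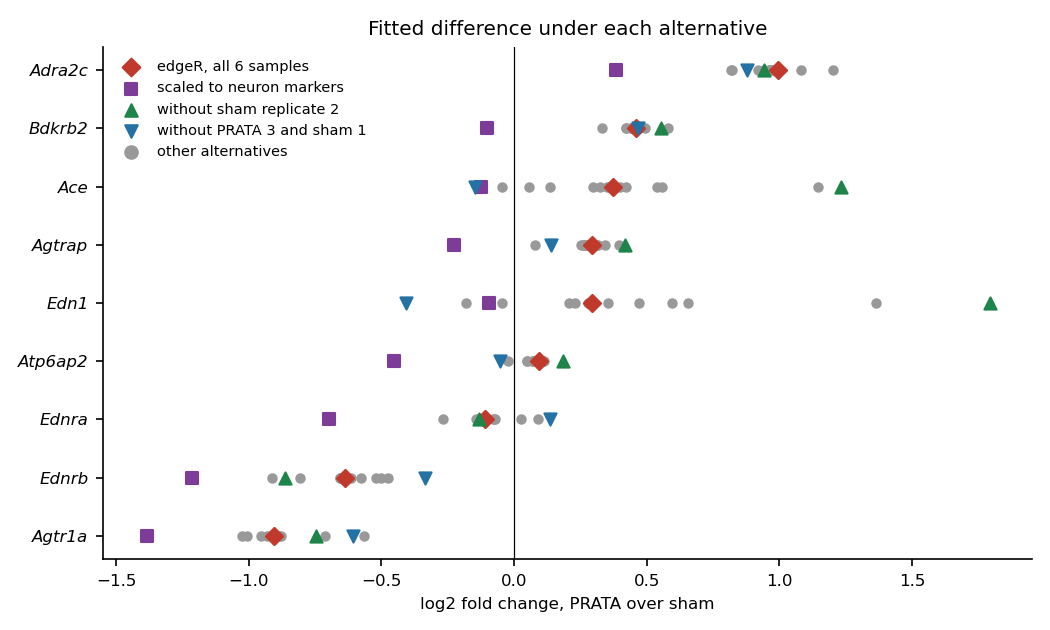
Log2 fold change of PRATA over sham (horizontal axis) of the 9 genes in the fit to all 6 samples and under each alternative. Adra2c lies above 0 and Ednrb and Agtr1a lie below 0 under all alternatives shown, while Ace, Edn1, Atp6ap2, Ednra, Agtrap and Bdkrb2 each cross 0 under at least 1 of them. Agtrap and Bdkrb2 do so only when scaled to the neuron markers, which shifted the median of all genes tested to -0.54.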

How the data were processed

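The deposited table holds raw counts of reads per gene for 6 samples, which the authors made from stranded, ribosome-depleted, paired-end libraries. The study's methods name HISAT2, StringTie and Cuffdiff, and the submitters' processing notes name STAR 2.7.3a, RSEM and DESeq2. Which of them made the counts, the strand setting, the genome build and the annotation are not given in the sources used here. All 6 sample columns were used.

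Genes were kept by filterByExpr (minimum count 10, minimum total 15), scaled by TMM (factors 0.953 to 1.10) and compared by the two-sided quasi-likelihood test of edgeR, with p adjusted by Benjamini-Hochberg for 14919 genes (R 4.3.3, edgeR 4.0.16, limma 3.58.1, DESeq2 1.42.0; figures with Python 3.11.15 and matplotlib 3.10.9). The standard error is the log2 fold change divided by the root of the F statistic. Ratios of counts used a pseudocount of 0.5 for the test only. The fits were also run on counts simulated with dispersions estimated from these samples, which does not test the calls made here. Levels are not compared between genes, since transcript lengths were not used here.

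The 10 genes, the pathway lists and the marker lists were chosen with earlier results of these data known. Of the pathway lists, all members matched by name except 1 in the kallikrein-kinin list. Named besides the 10 were, per pathway list, up to 4 tested genes with the smallest p and any whose log2 fold change exceeded 1 in size at an unadjusted p under 0.05, while precursors, transmitter enzymes, Agtr1b, Agtr2, Adra2b and Adra1d were named after their values were seen. Of the 2 entries named Gnas, the one with more counts was used. The alternatives were other scalings, other filters, DESeq2, limma-trend (pseudocount 1), voom with quality weights, a fit blocked on replicate number, omission of single samples, and the 4 samples with the lower Rn7sl1 share.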

Additional observations from a re-analysis of the deposited data

How the results depend on the processing

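No gene of the 10 reached an adjusted p under 0.05 under any of 16 alternatives to edgeR with TMM. DESeq2 gave no adjusted p for Ace, Agtr1a and Edn1, and Ace and Edn1 were not tested when 10 counts were required in every sample. Bdkrb1 was tested only in the fit without a filter on low counts. At an unadjusted p under 0.05, 1 gene instead of 2 was called with library size alone, beside 16.8% of all genes tested instead of 18.3%. The replicate block called 1 (beside 10.2%), and the fit without PRATA replicate 3 and sham replicate 1 called 0 (beside 12.9%). More were called without a filter on low counts (3, beside 13.5%) and by voom with quality weights (3, beside 30.9%). In both, Ednrb was called besides Adra2c and Bdkrb2. Leaving out each sample in turn called 1 to 4, beside 8.91% to 27.6% of all genes. With an absolute log2 fold change over 1 as well, 2 genes instead of 0 were called with neuron marker scaling, beside 16.1% of all genes instead of 4.40%. They were Agtr1a and Ednrb, then also the 2 with an unadjusted p under 0.05, beside 30.2% of all genes. By both criteria, 0 to 2 were called with single samples left out, beside 3.08% to 6.70% of all genes. With the replicate block, the log2 fold change was 0.98 for Adra2c (edgeR adjusted p = 0.461) and 0.47 for Bdkrb2 (0.518), and Bdkrb2 alone lost its unadjusted call. Same-numbered samples are not said to belong together, and their deviations from the group means correlated across genes with r of -0.35, -0.05 and -0.35, so the block was no part of the reported fit.

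Neuron marker scaling shifted the median of all genes tested to -0.54. With it the sign changed for Ace (-0.13), Atp6ap2 (-0.45), Agtrap (-0.22), Bdkrb2 (-0.10) and Edn1 (-0.093). Without PRATA replicate 3 and sham replicate 1 the sign changed for Ace (-0.15), Atp6ap2 (-0.051), Edn1 (-0.41) and Ednra (0.14). Voom quality weights changed it for Ednra (0.027), and endothelial marker scaling for Ace (-0.0074). With single samples left out it changed for Ace (-0.045 to 1.23, lowest without sham replicate 3), Atp6ap2 (-0.022 to 0.18, lowest without sham replicate 1), Ednra (-0.27 to 0.089, highest without sham replicate 1) and Edn1 (-0.18 to 1.79, below 0 without PRATA replicate 3, sham replicate 1 or sham replicate 3).

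The list medians moved with neuron marker scaling to -0.48 (renin-angiotensin), -0.30 (kallikrein-kinin), -0.70 (endothelin), -0.32 (adrenergic) and -0.34 (G protein coupling), beside -0.54 for all genes tested. Without PRATA replicate 3 and sham replicate 1 they were -0.070 (renin-angiotensin), -0.044 (kallikrein-kinin), -0.022 (adrenergic) and 0.091 (G protein coupling). Without a filter the kallikrein-kinin median was -0.11 and the adrenergic one -0.15, and with 10 counts in every sample the kallikrein-kinin median was 0.16, each over another set of genes. With single samples left out, the medians ranged from -0.091 to 0.15 (renin-angiotensin), 0.022 to 0.32 (kallikrein-kinin), 0.0052 to 0.26 (adrenergic) and 0.13 to 0.39 (G protein coupling). The cause was not tested. Bdkrb1, with 1 to 10 counts a sample, was too shallow to pass the filter, and without a filter its unadjusted edgeR p was not under 0.05.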
